A study of Mus musculus with 6 samples.

Results

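Igf2 and 9 other imprinted growth genes were described in medullary thymic epithelial cells (mTEC), the stromal cells of the thymic medulla that display tissue antigens to developing T cells. Igf2 was chosen by its counts, which were lower in mutant than in wild-type libraries, and the other 9 genes for being imprinted and acting in growth. The 10 are among 43432 gene IDs counted. The libraries came from C57BL/6 mice at 4 weeks of age. WT was Copa+/+ (3 libraries) and MUT was CopaE241K/+ (3 libraries), heterozygous for an amino acid change in the alpha subunit of the COPI vesicle coat. The labels do not say whether a library came from a single animal or a pool, so the spread between libraries may be partly technical.

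Imprinted genes are transcribed mainly from the maternal or from the paternal copy, as set by methylation marks laid down in the germ line. Many of them act in fetal growth, where paternally expressed members such as Igf2 often promote growth and maternally expressed members often restrain it. IGF2 is a secreted growth factor related to insulin, and its gene is transcribed in thymic epithelium. The counts give the sum over both alleles and cannot show which allele was read.

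Library totals ran from 19934513 to 23366238 counts, and mitochondrially encoded genes took 9.14% to 21.3% of them. Of the 43432 gene IDs, 17172 had enough counts to be tested, and all 10 imprinted growth genes were among these. At least 10 counts in every library were held by 9 of the 10, and the exception was Mest with 7 counts in MUT library 1. In edgeR's quasi-likelihood test 0 of the 17172 genes, or 0%, passed an adjusted p of 0.05, and the lowest adjusted p was 0.999875. An unadjusted p under 0.05 was reached by 597 genes, and DESeq2 called 116 genes at an adjusted p of 0.05. Over the genes tested with edgeR the median standard error (SE) of the log2 fold change was 1.03. A gene that did not pass is therefore not shown to be unchanged. Defining mTEC genes were high in every library: Aire, the regulator of tissue antigen expression, lay between 929 and 1563 CPM (counts scaled to a common library size), and the epithelial adhesion gene Epcam between 418 and 751 CPM. Of the 15 mTEC markers, Ccl21a, which has near-identical copies, had too few counts to be tested.

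Igf2 (ENSMUSG00000048583, GRCm38 chromosome 7, 142650766 to 142666816, minus strand) measured 126 CPM, 130.5 CPM and 162 CPM in WT libraries 1, 2 and 3. Its MUT values, in the same order, were 40.5, 37.4 and 58.6 CPM. All 3 MUT libraries lay below all 3 WT libraries, and the lowest WT value was 2.16 times the highest MUT value. The WT mean was 139.7 ± 19.6 CPM and the MUT mean 45.5 ± 11.4 CPM (SD, n = 3 per genotype, as for each ± that follows), a ratio of 3.07. The fitted log2 fold change, MUT minus WT, was -1.62 (SE 0.41), and with any 1 library left out it lay between -1.85 and -1.50. Of all genes tested, 7.86% had a log2 fold change this low or lower. No test is given for this difference because Igf2 was chosen for it. In bulk libraries, fewer cells that transcribe a gene and less RNA per cell cannot be told apart. Igf2os, an antisense gene that overlaps Igf2, had 0 to 19 counts per library, against 780 to 3685 for Igf2.

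**Figure D1:**
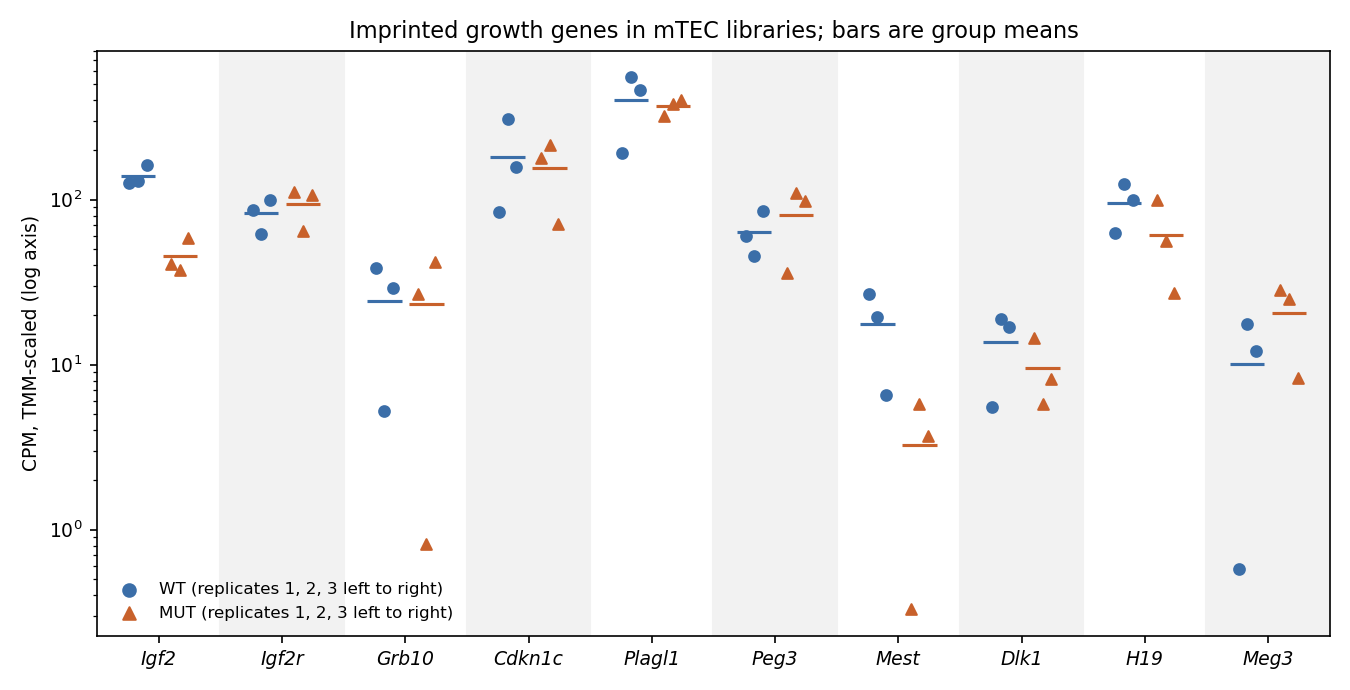
CPM (log axis) of the 10 imprinted growth genes in each library, WT as circles and MUT as triangles, replicates 1 to 3 from left to right, with bars at the group means. The groups do not overlap for Igf2 and Mest, and they overlap for the other 8 genes.

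Gene counts do not show which Igf2 start was used. RefSeq sequences on GRCm38.p6 were matched for 8 of the 10 genes, and H19 and Cdkn1c had no entry. Shown are the 250 bases upstream of the outermost Igf2 starts, the first and the fourth in the direction of transcription, and of a Mest start, because these 2 genes are the ones whose genotypes did not overlap. Capitals mark a GC box, the short element bound by Sp1-type factors, searched as GGGCGG on both strands.
Igf2 start 1, chr7:142666817-142667066, minus strand: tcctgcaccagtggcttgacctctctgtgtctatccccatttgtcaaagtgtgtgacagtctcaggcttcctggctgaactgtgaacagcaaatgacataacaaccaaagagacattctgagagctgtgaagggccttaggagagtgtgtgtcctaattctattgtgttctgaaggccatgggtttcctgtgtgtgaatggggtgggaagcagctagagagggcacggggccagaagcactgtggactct
Igf2 start 4, chr7:142657497-142657746, minus strand: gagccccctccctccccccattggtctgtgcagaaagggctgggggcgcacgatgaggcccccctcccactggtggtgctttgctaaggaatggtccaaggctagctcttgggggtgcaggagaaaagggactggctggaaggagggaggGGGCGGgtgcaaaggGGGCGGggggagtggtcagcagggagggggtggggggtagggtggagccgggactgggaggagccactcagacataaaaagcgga
Mest start 2, chr6:30737800-30738049, plus strand: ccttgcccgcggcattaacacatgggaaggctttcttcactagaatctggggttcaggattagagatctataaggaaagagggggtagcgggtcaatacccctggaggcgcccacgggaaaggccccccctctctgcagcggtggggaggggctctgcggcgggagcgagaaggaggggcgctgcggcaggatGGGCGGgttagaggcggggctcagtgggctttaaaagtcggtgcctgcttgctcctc
The window at Igf2 start 1 held 50.8% G and C and 0 GC boxes. At start 4 it held 66% G and C and 2 GC boxes, and the Mest window held 62.4% and 1. Of the 15 upstream windows of the imprinted growth genes, 8 held a GC box, against 32.7% of all 32851 windows of that length in the table. The 15 windows belong to 8 genes and are not all separate. Those of Mest starts 2 and 3 begin at 30737800 and 30737803 and overlap, so their shared GC box is counted in both. GGGGCCCC, which reads the same on both strands and is bound by the zinc finger protein Plagl1, was present in 1 of the 15 windows, that of Peg3, and in 0.889% of all windows. These matches are descriptions of letters and not of binding.

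Compared per kilobase of annotated exon (RPKM), Igf2 was the fourth most abundant of the 10 genes in WT, at 24.4 ± 3.42 RPKM. Above it stood Cdkn1c at 89.7 ± 55.5, Plagl1 at 51.5 ± 24.0 and H19 at 39.0 ± 12.7 RPKM, and the ranges of neighbours in this order overlapped. Below it came Igf2r at 8.91 ± 2.03 RPKM, which did not overlap Igf2 in WT. Peg3 (4.78 ± 1.52 RPKM) did not overlap Igf2r. It overlapped Mest (4.47 ± 2.62), Mest overlapped Grb10 (2.68 ± 1.90), and Grb10 overlapped Dlk1 (2.43 ± 1.263). Meg3 was lowest, at 0.56 ± 0.48 RPKM, and did not overlap Dlk1. In MUT the order of Igf2 (7.95 ± 2.00 RPKM) and Igf2r (10.1 ± 2.81 RPKM) was the other way round, and their ranges overlapped.

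The receptor gene Igf2r (ENSMUSG00000023830, chromosome 17, 12682406 to 12769664) encodes the protein that binds IGF2 and carries it to lysosomes, and so limits the ligand. It measured 87.1, 62.3 and 99.4 CPM in WT libraries 1, 2 and 3 and 112, 64.4 and 106.6 CPM in MUT. Both genotypes spanned much the same range, with a log2 fold change of 0.19 (SE 0.43) that ran from 0.0049 (without WT replicate 2) to 0.39 (without MUT replicate 2). Within each library the ratio of Igf2 to Igf2r, both in RPKM, took the WT values 2.36, 3.41 and 2.65 and the MUT values 0.59, 0.94 and 0.89, and all MUT ratios lay below all WT ratios. The ratio contains the Igf2 values that led to its choice. Airn, the noncoding RNA transcribed across the start of Igf2r from the other strand, had 1 to 678 counts per library, and without a stated strand setting its reads cannot be told apart from those of Igf2r.

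Grb10 (ENSMUSG00000020176, chromosome 11, 11930508 to 12038683) encodes an adaptor that binds insulin and IGF receptors and restrains their signal. Its CPM values were 38.8, 5.27 and 29.0 in WT and 26.8, 0.81 and 42.2 in MUT. Replicate 2 held the lowest value in each genotype, and the groups overlapped (log2 fold change -0.07, SE 1.12). Its sign turned with upper-quartile factors (0.08) and without WT replicate 1 (0.42), WT replicate 3 (0.08) or MUT replicate 2 (0.49).

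Cdkn1c (ENSMUSG00000037664, chromosome 7, 143458339 to 143461050) encodes the cyclin-dependent kinase inhibitor p57, a brake on cell division. WT libraries 1, 2 and 3 measured 84.9, 306.6 and 157 CPM and MUT libraries 179, 215 and 71.3 CPM. The groups overlapped, with a log2 fold change of -0.24 (SE 0.52) that became 0.35 without WT replicate 2 and 0.10 without MUT replicate 3.

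Plagl1 (ENSMUSG00000019817, chromosome 10, 13060504 to 13131694) encodes a zinc finger factor that regulates other imprinted genes. It was the most highly counted of the 10, at 192 to 552 CPM in WT and 322 to 404 CPM in MUT, and the MUT range lay within that of WT. The log2 fold change was -0.13 (SE 0.38), and 0.15 without WT replicate 2. Peg3 (ENSMUSG00000002265, chromosome 7, 6703892 to 6730431), a further zinc finger gene, measured 60.1, 45.5 and 85.6 CPM in WT and 36.2, 109 and 98.1 CPM in MUT. MUT held both the lowest and the highest value of Peg3, and its log2 fold change was 0.35 (SE 0.52), with a range from 0.06 (without MUT replicate 2) to 0.70 (without MUT replicate 1) when 1 library was left out.

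Mest (ENSMUSG00000051855, chromosome 6, 30723547 to 30748465), which encodes a hydrolase-like protein of mesoderm and growing tissues, measured 27.0, 19.4 and 6.56 CPM in WT libraries 1, 2 and 3. MUT libraries 1, 2 and 3 measured 0.33, 5.80 and 3.72 CPM. All MUT values lay below all WT values, but the highest MUT and the lowest WT value differed only 1.13-fold. The log2 fold change of -2.42 had an SE of 1.27, and it lay between -3.13 and -1.89 with any 1 library left out. The neighbouring gene Copg2 overlaps the end of Mest on the other strand. Copg2 held 413 to 1246 counts per library against 7 to 470 for Mest, so the Mest values are uncertain if reads were counted without strand.

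Dlk1 (ENSMUSG00000040856, chromosome 12, 109452823 to 109463336) encodes a membrane protein related to Notch ligands, and Meg3 (ENSMUSG00000021268, chromosome 12, 109541001 to 109571726) is the maternally expressed noncoding RNA of the same domain on chromosome 12. Dlk1 measured 5.57, 18.8 and 16.8 CPM in WT and 14.6, 5.75 and 8.20 CPM in MUT, overlapping, with a log2 fold change of -0.53 (SE 1.02). With 1 library left out the Dlk1 value ran from -0.98 (without MUT replicate 1) to -0.25 (without WT replicate 2). Meg3 was at 0.57 CPM in WT library 1, where 10 reads were counted, and at 17.7 and 12.2 CPM in WT libraries 2 and 3. Its MUT values, in the same order, were 28.5, 25.2 and 8.35 CPM, and the groups overlapped (log2 fold change 1.02, SE 1.13). With 1 library left out the Meg3 value ran from 0.47 (without WT replicate 1) to 1.68 (without WT replicate 2). Rian, a noncoding RNA transcribed downstream of Meg3, measured 0.17, 8.43 and 8.23 CPM in WT and 67.6, 22.8 and 9.29 CPM in MUT. The 3 MUT libraries lay above the 3 WT libraries for Rian, by 1.10-fold at the nearest values. Of all genes tested, 5.39% were higher in MUT without overlap. Its log2 fold change was 2.56 (SE 1.23), or 1.51 without MUT replicate 1. Mirg, the next noncoding RNA of the domain, stood at 28.7 CPM in WT library 1 and at no more than 1.58 CPM in any other library. Its log2 fold change of -3.38 (SE 1.75) became -0.28 without WT replicate 1.

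H19 (ENSMUSG00000000031, chromosome 7, 142575529 to 142578143), a maternally expressed noncoding RNA, shares enhancers with Igf2 and lies downstream of it on chromosome 7. It measured 63.3, 125 and 99.0 CPM in WT and 99.5, 56.2 and 27.4 CPM in MUT. The groups overlapped, with means of 95.8 ± 31.1 and 61.0 ± 36.3 CPM and a log2 fold change of -0.65 (SE 0.53), which ran from -1.20 (MUT replicate 1 left out) to -0.30 (MUT replicate 3 left out), and was -0.42 with WT replicate 2 left out. Ins2, the insulin gene on the other side of Igf2, is a tissue antigen of mTEC. It measured 94.9 CPM in WT library 1 and 5.85 to 16.9 CPM in the other 5 libraries. Its log2 fold change of -1.87 (SE 0.91) became -0.37 without WT replicate 1.

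**Figure D2:**
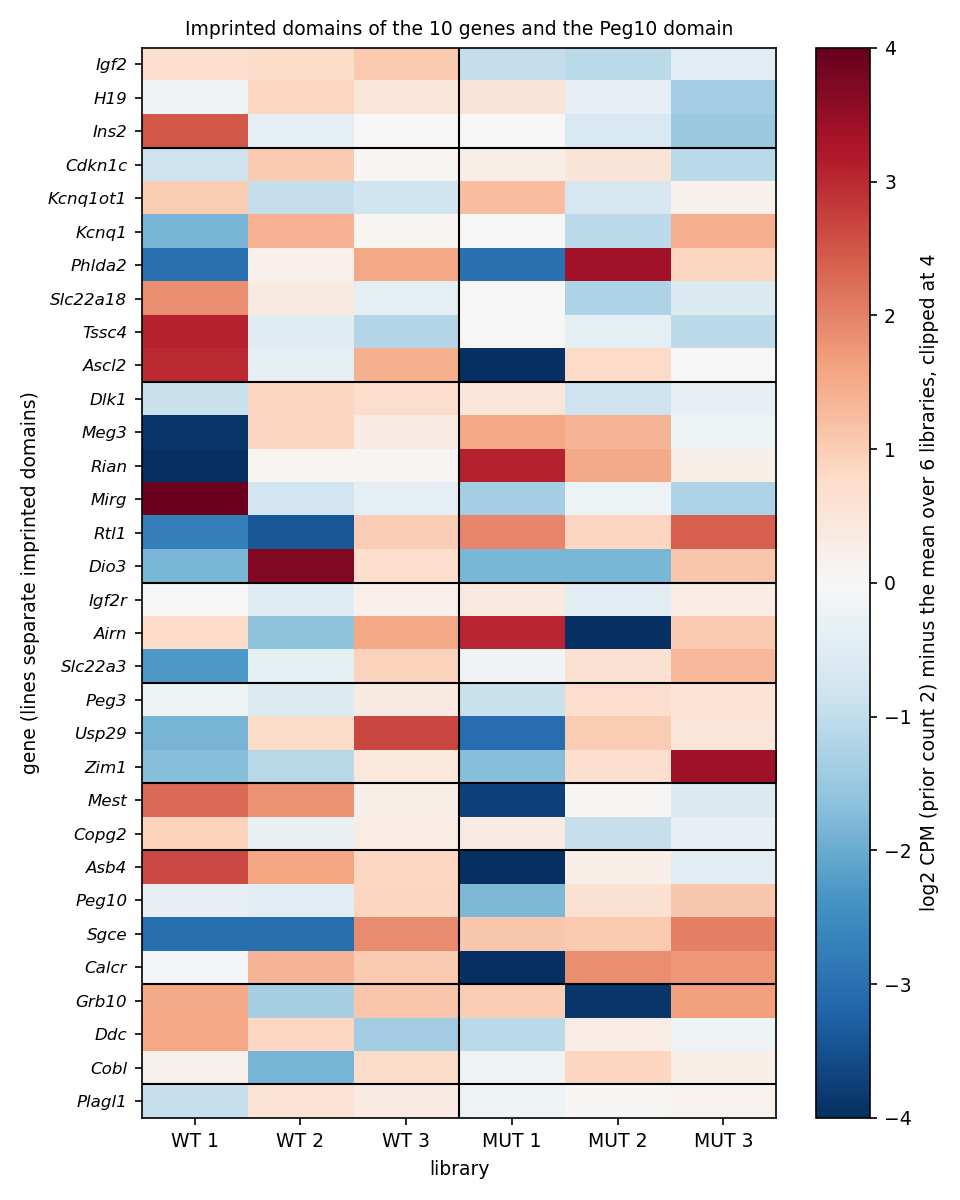
Log2 CPM (prior count 2) of the 10 genes, their neighbours and the Peg10 domain that holds Asb4, in each library, minus the gene's mean over the 6 libraries and clipped at 4, with lines between imprinted domains and between WT and MUT. Igf2 is above its mean in every WT library and below it in every MUT library, while Meg3 and Rian are lowest in WT library 1.

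Of the 9 genes beside Igf2, 6 had a fitted log2 fold change below 0, against 50.6% of all genes tested, and their median was -0.13, against -0.01 over all genes tested. That median was -0.47 without WT replicate 1, 0.0049 without WT replicate 2, -0.02 without WT replicate 3, -0.21 without MUT replicate 3, -0.21 with a replicate block and -0.28 with limma-voom, and 4 to 6 of the 9 were below 0 with any 1 library left out. With Igf2, which was chosen for being lower, the count was 7 of 10 and the median -0.18. By expressed allele, with Igf2 left out, 3 of 4 paternally expressed genes (Plagl1, Mest and Dlk1, but not Peg3) and 3 of 5 maternally expressed genes (Grb10, Cdkn1c and H19) were below 0. All MUT libraries lay below all WT libraries for 2 of the 10, one of them Igf2, which was chosen for it, against 3.96% of all genes tested. For 0 of the 10 did they lie above, against 5.39%. Of the 9 genes beside Igf2, 0 passed edgeR's adjusted test, and 0 reached an unadjusted p under 0.05, a level reached by 3.48% of all genes tested (1.85% lower in MUT and 1.62% higher). For the same 9 genes, 0 passed with DESeq2 (1 at an unadjusted p under 0.05), 0 with limma-voom and 0 with edgeR without a filter on low counts. Over all genes DESeq2 called 0.621%, and 0.203% as lower in MUT.

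**Figure D3:**
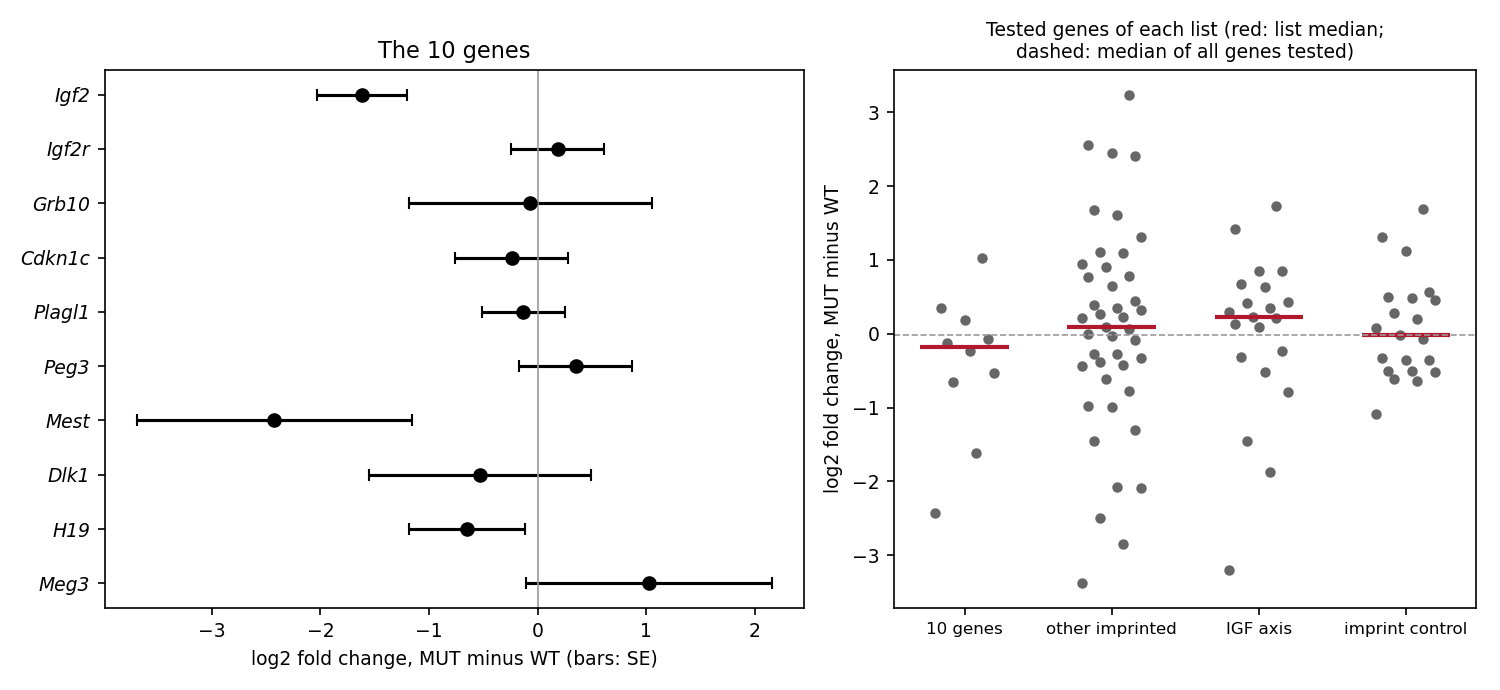
Left, fitted log2 fold change (MUT minus WT) of each of the 10 genes with its SE; right, the fitted values of all tested genes in each of 4 lists, with list medians in red and the median of all genes tested dashed. Igf2 stands at -1.62 and Mest at -2.42, and the other 8 genes lie between -0.65 and 1.02.

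Among 43 tested imprinted genes outside the 10, 23 were above and 20 below 0, with a median log2 fold change of 0.10. None of these 43 passed edgeR's adjusted test, and 0 reached an unadjusted p under 0.05. Their median SE was 1.23, so they are not shown to be unchanged. The smallest p values in this list belonged to Rian, Asb4, Tssc4 and Mirg. Asb4, which encodes an ankyrin repeat protein, measured 42.9, 20.3 and 12.1 CPM in WT and 0.14, 8.19 and 5.02 CPM in MUT. MUT lay below WT in all libraries of Asb4, with a log2 fold change of -2.49 (SE 1.25). Of the 43 genes, MUT lay below WT without overlap for 1, Asb4, against 3.96% of all genes tested. It lay above WT without overlap for 1, Rian, against 5.39%. Tssc4, from the imprinted domain of Cdkn1c, measured 120 CPM in WT library 1 and 6.34 to 14.4 CPM in the other 5 libraries, and its log2 fold change of -2.08 (SE 1.04) was 0.39 without that library. Kcnq1ot1, the paternally expressed noncoding RNA that silences Cdkn1c on its own chromosome, had a WT mean of 91.5 ± 75.8 CPM and a MUT mean of 120 ± 78.5 CPM.

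The IGF axis holds ligands, receptors, carriers and adaptors. Of its 21 tested genes, 14 were above and 7 below 0, with a median of 0.23, and 0 passed edgeR's adjusted test. An unadjusted p under 0.05 was reached by 1 of the 21, Igfbp6, a share near the 3.48% of all genes tested. Among the ligands Igf1 measured 343, 474 and 305 CPM in WT and 184, 411 and 190.2 CPM in MUT, which overlapped (log2 fold change -0.52, SE 0.38, and -1.01 without MUT replicate 2 or -0.32 without MUT replicate 1). The receptor genes Igf1r and Insr, through which IGF2 and insulin signal, had log2 fold changes of 0.41 (SE 0.60) and -0.24 (SE 0.38). Igfbp6, whose product binds IGF2 in preference to IGF1, measured 56.2, 5.56 and 10.6 CPM in WT and 0.57, 2.35 and 4.95 CPM in MUT. Igfbp6 was the only 1 of the 21 tested genes whose genotypes did not overlap. Over all genes tested, 3.96% were lower in MUT without overlap and 5.39% higher. The log2 fold change of Igfbp6, -3.20 (SE 1.263), was -1.64 without WT replicate 1. Irs1, an adaptor of insulin and IGF receptors, had means of 9.19 ± 3.93 CPM (WT) and 24.6 ± 17.8 CPM (MUT), with overlap (log2 fold change 1.42, SE 0.92, and 0.71 without MUT replicate 2).

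Genes that set or keep imprints were divided between directions: of 21 tested, 10 were above and 11 below 0, with a median of -0.02, and 7 were below 0 without WT replicate 1. None passed edgeR's adjusted test and 0 reached an unadjusted p under 0.05. Dppa3, which protects imprints in the early embryo, measured 39.9, 61.1 and 32.0 CPM in WT and 26.7, 12.0 and 24.1 CPM in MUT. It was the only 1 of the 21 without overlap (log2 fold change -1.08, SE 0.64). Over all genes tested, 3.96% were lower in MUT without overlap and 5.39% higher. Uhrf1, which brings the maintenance methyltransferase to DNA, measured 20.4 ± 15.1 and 44.3 ± 17.1 CPM (1.12, SE 0.73, and 0.71 without WT replicate 2 or 1.87 without WT replicate 3). Ctcfl, a relative of the insulator factor CTCF, was at 0.06 CPM in WT library 1 and at 104 CPM in MUT library 1 (1.70, SE 1.27, and 0.66 without MUT replicate 1, 1.12 without WT replicate 1 or 2.71 without WT replicate 2). Tet2, an enzyme of DNA demethylation, held 804 CPM in WT library 1, and its value of -0.62 (SE 0.47) was 0.26 without that library. Ctcf itself, which insulates Igf2 from its enhancers on the maternal copy, measured 86.8 ± 33.1 and 67.6 ± 9.97 CPM.

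Genes whose pattern over the 6 libraries was most like that of Igf2 were found by Pearson correlation of log2 CPM (prior count 2) among 12736 tested genes with a mean of at least 5 CPM. The 8 highest were Tada3, Gpr137b-ps, Lrrcc1, Nek4, Pdk2, Cltb, Sostdc1 and Ippk, with r between 0.955 and 0.973 and Spearman's rho between 0.77 and 0.94. All 8 were lower in every MUT library than in every WT library, which follows from their likeness to Igf2. Pdk2, a pyruvate dehydrogenase kinase gene, measured 130.0, 89.0 and 93.7 CPM in WT and 28.1, 22.5 and 37.8 CPM in MUT. Sostdc1, which encodes a secreted inhibitor of BMP and WNT signals, measured 18.2 ± 1.95 and 7.44 ± 0.55 CPM. With MUT libraries 1 and 2 left out, the 2 farthest from the median of Igf2, r for the 8 genes lay between 0.864 and 0.968. Only MUT library 3 then stood beside the WT libraries, and H19, with r = 0.40 over all 6 libraries, reached 0.908. These values therefore cannot set the 8 genes apart from others. Gpr137b-ps is a pseudogene with a near-identical parent gene, so its count is uncertain. Of the other 9 imprinted growth genes Mest was the most like Igf2, with r = 0.69, and it ranked 746 among the 12736 genes. The 6 points share the genotype split, and with each genotype's mean taken out r for the 8 genes lay between 0.133 and 0.906. For Mest the same r was -0.073, so its likeness to Igf2 lay in the genotype split.

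Marker lists of other cell types were set beside Igf2 as summed CPM. The list of tuft cells, a chemosensory epithelial type, had lower sums in all MUT libraries than in all WT libraries, as Igf2 did. Its 12 genes summed to 463 to 1346 CPM in WT and 265 to 428 CPM in MUT, and 11 of 12 had a fitted value below 0. The nearest sums were 463 CPM in WT and 428 CPM in MUT, and the highest, 1346 CPM, was that of WT library 1. The tuft cell kinase gene Dclk1 measured 227, 115 and 87.1 CPM in WT and 57.9, 3.35 and 30.0 CPM in MUT. Dclk1 was picked with its values known and was the only 1 of the 12 tuft genes without overlap. Of all genes tested, 3.96% had all MUT libraries below all WT libraries. The part of tuft cells in the Igf2 difference was not tested. Epcam, an epithelial marker, was also lower in MUT without overlap, at 674 ± 67.4 and 484 ± 95.2 CPM. It was chosen after its values were seen and was the only 1 of 14 tested mTEC markers without overlap, and of these 14, 6 were above and 8 below 0. The sums of the other 13 lists overlapped between genotypes. Pericyte and smooth muscle markers, with Rgs5 the highest, summed to 1973 to 3393 CPM in WT and 1316 to 2305 CPM in MUT. Of the 7 tested genes of that list, 4 were above and 3 below 0. Fibroblast markers are relevant because stromal fibroblasts can transcribe Igf2, Dlk1 and Mest. Their 15 genes, none at 0 in all libraries, summed to 478 to 620 CPM in WT and 426 to 657 CPM in MUT. Of these genes 9 were above and 6 below 0. Fn1, the highest by mean CPM, was lower in MUT without overlap, at 247 ± 32.6 and 184 ± 22.0 CPM. Its nearest WT and MUT values differed only 1.06-fold, and it was the only 1 of the 15 without overlap. Pdgfra stood at 13.8 CPM in MUT library 2 and at no more than 3.72 CPM in any other library. The sums therefore do not show whether fibroblast content was alike. The 15 muscle markers summed to 811 to 1023 CPM in WT and 983 to 1147 CPM in MUT, with Myf5 at 0 in all libraries. Proliferation genes summed to 689 to 1691 CPM in WT and 484 to 718 CPM in MUT, with overlap.

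**Figure D4:**
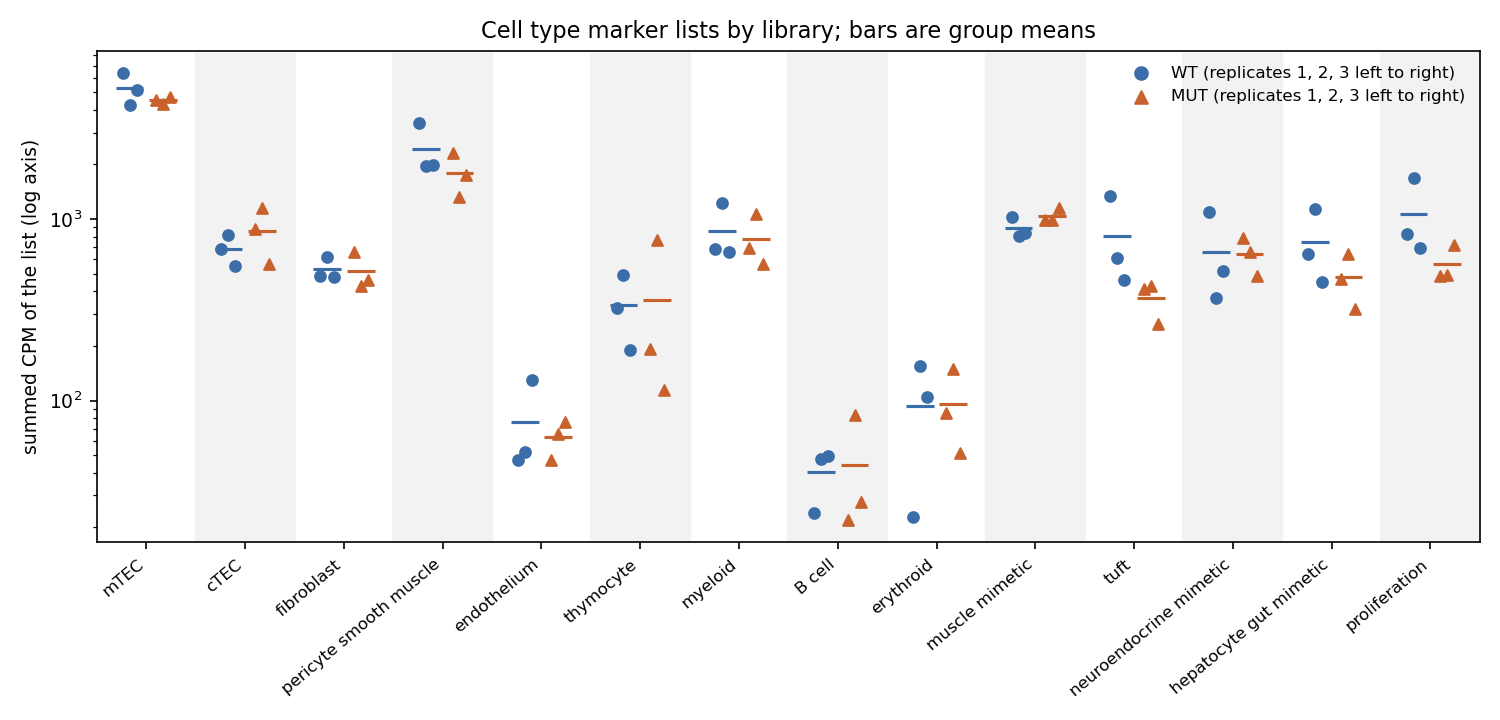
Summed CPM (log axis) of each of 14 marker lists in each library, WT as circles and MUT as triangles, replicates 1 to 3 from left to right, with bars at the group means. The tuft list is the only one of the 14 whose genotypes do not overlap.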

How the data were processed

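RNA sequencing counts of 6 mTEC libraries (3 WT, 3 MUT) were used, grouped and numbered by the sample titles. Per the labels' protocols, column-purified RNA was amplified as cDNA (Nugen Ovation) before Nextera XT library preparation. The authors deposited raw read counts per Ensembl gene ID, without normalization. STAR 2.4.2a, DESeq2 1.26.0 and GRCm38 are named, per the submitters' processing notes, with no role. Which program counted, with which annotation and strand setting, is not given in the sources used here, so overlapping genes are uncertain.

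Symbols, positions and exon lengths came from GENCODE M21 on GRCm38, matched for 42548 of 43432 IDs. All genes kept by filterByExpr were fitted together with edgeR 4.0.16 in R 4.3.3 (TMM scaling, robust quasi-likelihood test, Benjamini-Hochberg threshold 0.05), and the script was tested on simulated data. SE is that of the log2 fold change. CPM uses TMM-scaled sizes of tested genes, and RPKM divides it by exon length.

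The genes and lists were chosen with earlier results of these data known. Beside the 10, the genes to name were the 4 with the smallest p in each list, the 8 most like Igf2, leading markers and neighbours in an imprinted domain; Igf1r, Insr, Ctcf, Dclk1 and Epcam were picked with values known. The alternatives tried were RLE and upper-quartile factors, other filters, DESeq2 1.42.0, limma-voom (limma 3.58.1), the replicate block and each library left out.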

Additional observations from a re-analysis of the deposited data

How the results depend on the processing

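The log2 fold change of Igf2 stayed between -1.85 and -1.50 under all 13 alternatives, and 7 of the 10 genes were below 0 under every alternative but upper-quartile factors (6) and the leave-one-out fits (5 to 7). Over all genes, the count past the threshold was 73 without a filter on low counts (31 higher, 42 lower), and 116 with DESeq2 (78 higher, 38 lower, or 0.203% of 18687 genes with an adjusted p). None of the 9 genes beside Igf2 was called by edgeR, with or without the filter, DESeq2 or limma-voom. The cause of these differences in count was not tested. The median over all genes, -0.01, became 0.16 without the filter and 0.15 with DESeq2. Grb10 turned to a log2 fold change of 0.080 with upper-quartile factors. With 1 library left out, Cdkn1c ranged from -0.58 to 0.35, Grb10 from -0.82 to 0.49, Plagl1 from -0.47 to 0.15, Tet2 from -0.97 to 0.26 and Tssc4 from -2.60 to 0.39. The imprint control list had 7 to 12 genes below 0, and the count of genes past the threshold stayed at 0. A replicate block in the edgeR fit gave 1 call, Ccl5 (higher), and put Igf2 at -1.64. Deviations from the group means correlated at 0.059 to 0.13 between libraries of the same number. By these deviations 6 of 6 libraries correlated best with their own number, which is a hint from the data. The 6 matches are not independent, because deviations cancel within each genotype. By Spearman correlation of log2 CPM without centring, every library had number 3 of the other genotype as its best partner. Number 3 also held the most genes with a count in each genotype (21755 in WT, 24774 in MUT). This uncentred correlation therefore cannot decide on pairs. The source names of same-numbered WT and MUT libraries also end alike, but no label says what that ending stands for, so the numbers were not taken as pairs.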

Other observations

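Mest and Asb4 are imprinted genes of separate domains on chromosome 6, at 30723547 to 30748465 and at 5383386 to 5433022. They ranked the 6 libraries in the same order, from WT library 1 (27.0 and 42.9 CPM) down to MUT library 1 (0.33 and 0.14 CPM), with Pearson's r = 0.99 and Spearman's rho = 1 for log2 CPM. Meg3 and Rian, neighbours on chromosome 12, had r = 0.96 and rho = 0.83. Each of these pairs had 1 library with few counts, and how far r rests on it was not tested. Meg3 and Rian had 10 and 3 counts in WT library 1, and Mest and Asb4 had 7 and 3 in MUT library 1. For Igf2r and its antisense RNA Airn r was 0.89 and rho 0.89. Reads of these overlapping genes cannot be told apart without a stated strand setting, and Airn had 1 count in MUT library 2. Igf2 and H19 had r = 0.40, and r = -0.55 once each genotype's mean was taken out. Other neighbours were also less alike: r was 0.52 for Meg3 and Dlk1, 0.073 for Mest and Copg2 and -0.54 for Cdkn1c and Kcnq1ot1. These correlations are over 6 libraries that share the genotype split, and the pairs were chosen after their values were seen.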
